A study of Mus musculus with 4 samples.

Results

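Amino acid transporters were examined in mouse CD4+ T cells cultured for 3 days under conditions that drive regulatory T (Treg) cell differentiation. The 10 genes were Slc7a5, Slc3a2, Slc1a5, Slc1a4, Slc38a1, Slc38a2, Slc7a1, Slc7a6, Slc43a1 and Slc6a9. They were chosen by name for what their proteins carry, with earlier results of these data known. All 10 were among the 34745 genes of the deposited table. The knockout-labelled group, libraries 22 and 24, came from C57BL/6 mice with the genotype Setd2-CD4 cre, in which a Cre recombinase driven by the Cd4 promoter is directed at Setd2, a histone H3 lysine 36 methyltransferase gene. The wild-type group, libraries 13 and 15, came from wild-type C57BL/6 mice. All 4 cultures were started from naive splenic CD4+ T cells, and the labels give neither the age of the mice nor whether each library is a separate animal. The p-values therefore rest on the spread among these 4 libraries, part of which may be technical. Cre driven by Cd4 acts while T cells develop, so such cells would have carried the deletion before the culture began.

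T cells that leave rest grow and divide quickly, and they take up amino acids through carriers of the solute carrier (SLC) families to do so. The heavy chain CD98, made from Slc3a2, brings light chains such as LAT1, made from Slc7a5, to the cell surface, where the pair exchanges intracellular glutamine for leucine and other large neutral amino acids. Glutamine itself enters through sodium-coupled carriers, among them ASCT2 (Slc1a5) and the system A carriers SNAT1 and SNAT2 (Slc38a1 and Slc38a2). Leucine and arginine inside the cell are sensed by the kinase complex mTORC1, while a shortage of amino acids raises the transcription factor ATF4, whose known targets include several carrier genes.

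Library totals were 15594506 and 15653717 counts in the knockout-labelled libraries and 14599957 to 16030869 counts in the wild-type libraries. Levels are given as CPM, counts relative to the total of the library after scaling between libraries, and 3 counts corresponded to 0.184 to 0.201 CPM. Setd2 stood at 137 and 113 CPM in knockout-labelled 22 and 24, against 137 and 146 CPM in wild type 13 and 15 (log2 fold change -0.17, SE 0.14, adjusted p = 0.436). The groups overlapped for this gene, and the labels do not say which exons are deleted, so the summed reads of the gene are only a partial check and the libraries are called by their labels. The summed level of 8 general T cell markers was 3690 to 3950 CPM in the knockout-labelled group and 3570 to 3700 CPM in the wild-type group. Sums of markers of other cells were far lower but 3 of these lists stood higher in the knockout-labelled libraries. For 5 gamma-delta T cell genes, of which 3 of 4 tested rose, the sums were 39.5 and 58.1 CPM in knockout-labelled 22 and 24, against 17.8 and 15.7 CPM in wild type 13 and 15. For 6 B cell genes, of which none passed the test although all 6 stood apart in that direction, they were 40.0 and 26.9 CPM, against wild-type sums of 17.0 and 15.2 CPM. For 6 natural killer cell genes, of which 2 of 5 tested rose and Eomes fell, they were 46.2 and 40.0 CPM, against wild-type sums of 32.1 and 30.5 CPM. Over all tested genes 5.53% rose and 4.59% fell, and 31.1% stood higher in both knockout-labelled libraries than in both wild-type libraries. The CD8 genes gave 182 and 78.4 CPM, against 125 and 183 CPM in wild type, and 7 myeloid genes gave 17.2 and 17.4 CPM, against 18.4 and 24.6 CPM in wild type. No listed marker was at 0 in all 4 libraries, Sox13 and Ncr1 were at 0 in both wild-type libraries, and the part of such cells in the results below was not tested.

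Of the 10 transporter genes, 5 fell in the knockout-labelled libraries, none rose and 5 did not pass the threshold of an adjusted p below 0.05. The genes that fell were the glycine carrier gene Slc6a9 (3.35-fold), Slc7a5 (2.30-fold), the neutral amino acid exchanger genes Slc1a4 (1.78-fold) and Slc1a5 (1.43-fold), and the light chain gene Slc7a6 (1.57-fold). The CD98 heavy chain gene Slc3a2 and Slc38a2 had fitted values near 0, and Slc43a1 had a fitted value above 0. No gene rose by DESeq2 or limma either, and at an unadjusted p below 0.05 Slc43a1 alone was higher. The test was edgeR's quasi-likelihood fit to all 13279 genes that passed the filter on low counts, with Benjamini-Hochberg adjustment, in which 10.1% of genes were called, 4.59% as lower and 5.53% as higher, so 5 of 10 lower is above the background share. The median log2 fold change was -0.59 over the 10 genes and 0.00 over all tested genes. For 7 of the 10 genes both knockout-labelled libraries lay below both wild-type libraries, where 32.7% of all genes did so, and for 1 gene both lay above, where 31.1% of all genes did so. Instead of 5, 2 genes were called lower when wild type 13 was left out and 1 when wild type 15 was. In bulk RNA, fewer cells expressing a gene and less RNA per cell cannot be told apart.

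**Figure D1:**
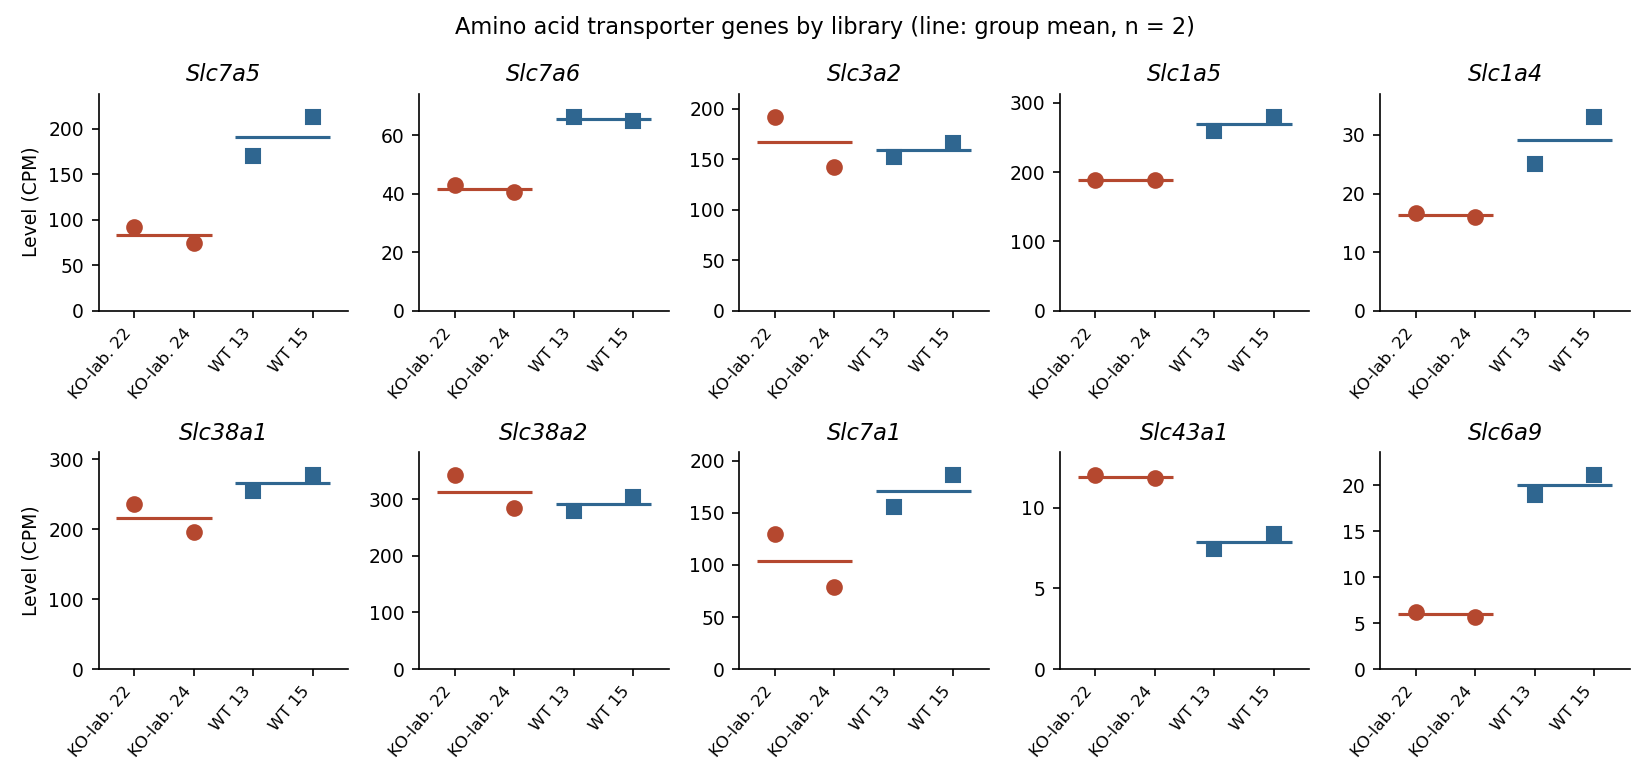
Level of each of the 10 transporter genes in CPM (vertical axes, each from 0) in the knockout-labelled libraries 22 and 24 (KO-lab., red circles) and the wild-type libraries 13 and 15 (WT, blue squares), with lines at the group means (n = 2 each). Red circles lie below both blue squares for 7 genes, above them for Slc43a1, and overlap them for Slc3a2 and Slc38a2.

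The light chains that pair with CD98 both fell. Slc7a5 (ENSMUSG00000040010, chromosome 8, 121881150 to 121907694, minus strand, GRCm38) encodes LAT1, the main importer of leucine, phenylalanine and tryptophan in activated T cells. It measured 91.5 and 74.5 CPM in knockout-labelled 22 and 24, against 170 and 213 CPM in wild type 13 and 15. The higher knockout-labelled library was still well below the lower wild-type library, and the mean was 83.0 ± 12.1 CPM in the knockout-labelled group and 191 ± 30.5 CPM in wild type (SD, n = 2 each). The fitted log2 fold change was -1.20 with an SE of 0.17 (adjusted p = 0.0168). Without wild type 15 its log2 fold change was -1.04 and its adjusted p 0.0785. Of all tested genes, 2.89% had a lower fitted value than Slc7a5.

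Slc7a6 (ENSMUSG00000031904, chromosome 8, 106168875 to 106198704, plus strand) encodes y+LAT2, a light chain that exchanges cationic for neutral amino acids, arginine for glutamine among them. Its level was 42.8 and 40.6 CPM in knockout-labelled 22 and 24, against 66.3 and 64.9 CPM in wild type 13 and 15. Libraries of a group lay within a few CPM of each other and the groups stood apart (log2 fold change -0.65, SE 0.12, adjusted p = 0.029). Leaving out wild type 13 or wild type 15 ended the call (adjusted p = 0.174 and 0.195), with log2 fold changes of -0.64 and -0.68.

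The heavy chain did not show this difference. Slc3a2 (ENSMUSG00000010095, chromosome 19, 8706882 to 8723369, minus strand) measured 192 and 142 CPM in knockout-labelled 22 and 24, against 152 and 166 CPM in wild type 13 and 15. The knockout-labelled libraries held both the highest and the lowest value, so the groups overlapped (log2 fold change 0.07, SE 0.17, adjusted p = 0.797). Leaving out knockout-labelled 22 gave a fitted value of -0.15, and leaving out 24 gave 0.27, neither past the threshold (adjusted p = 0.305 and 0.0817).

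Levels of the chains were then set against each other on the authors' FPKM scale (fragments relative to the library total and to the length of the gene), which divides by gene length. Slc7a5 stood at 0.735 and 0.808 of the Slc3a2 level in knockout-labelled 22 and 24, against 1.72 and 1.98 in wild type 13 and 15. Within each library, then, Slc7a5 lay below Slc3a2 in the knockout-labelled group and above it in wild type on this scale. The 6 light chains known to pair with CD98 (Slc7a5, Slc7a6, Slc7a7, Slc7a8, Slc7a10 and Slc7a11), a sum chosen after the values were seen, came to 1.15 and 1.34 times Slc3a2 in knockout-labelled 22 and 24, against 2.54 and 2.69 times in wild type 13 and 15. Nearly all of that sum was Slc7a5 and Slc7a6: Slc7a7 had 12 to 35 counts per library, Slc7a8 0 to 7, Slc7a10 0 to 4 and the cystine carrier gene Slc7a11 16 to 47. The ratio of Slc7a6 to Slc7a5 was 0.540 and 0.630 in knockout-labelled 22 and 24, against 0.451 and 0.352 in wild type 13 and 15. These ratios are descriptions and no test of them was run; an exact permutation test of 2 against 2 libraries cannot give a p below 0.333. Transcript ratios do not measure the chains at the cell surface.

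**Figure D2:**
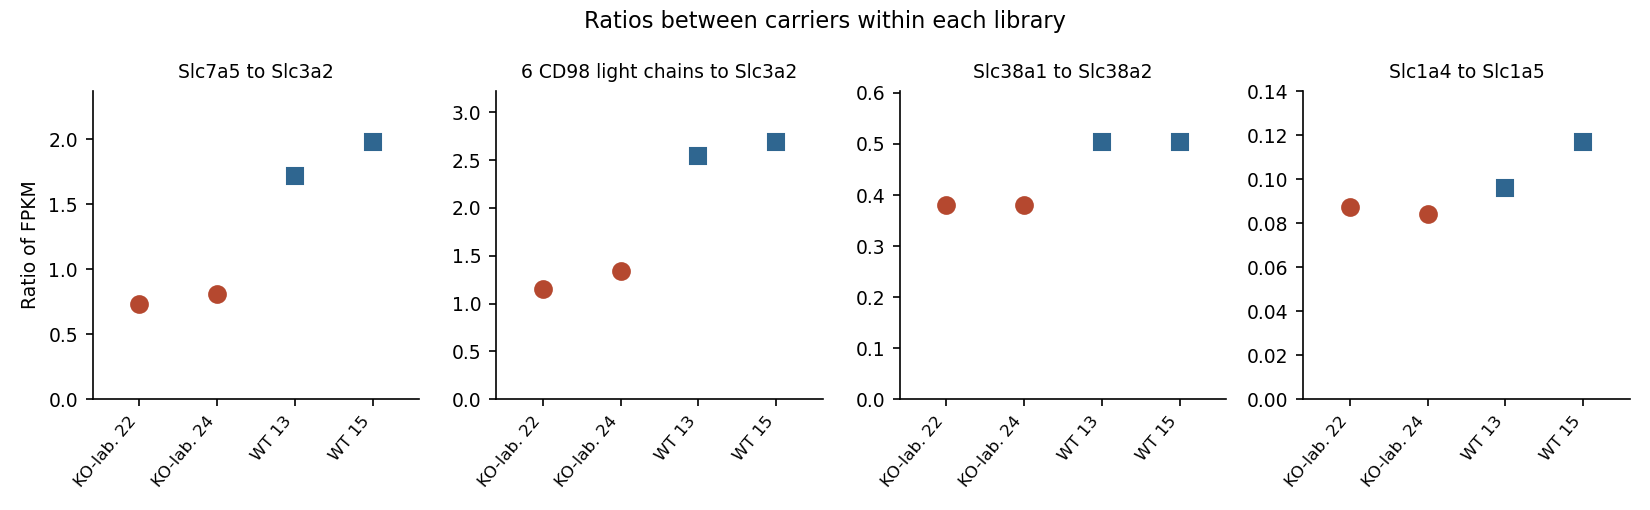
Ratios of FPKM between carrier genes within each library (vertical axes, each from 0), for the knockout-labelled libraries 22 and 24 (KO-lab., red circles) and the wild-type libraries 13 and 15 (WT, blue squares). The panels show Slc7a5 to Slc3a2 (0.735 and 0.808 against 1.72 and 1.98), the 6 light chains to Slc3a2, Slc38a1 to Slc38a2 and Slc1a4 to Slc1a5, and in each the red circles lie below the blue squares; Slc7a6 to Slc7a5, which is not plotted, was higher in the knockout-labelled libraries.

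The neutral amino acid exchangers fell together. Slc1a5 (ENSMUSG00000001918, chromosome 7, 16781340 to 16798274, plus strand) encodes ASCT2, a sodium-dependent exchanger that brings glutamine into activated T cells. Both knockout-labelled libraries stood at 188 CPM, against 259 and 280 CPM in wild type 13 and 15 (log2 fold change -0.52, SE 0.11, adjusted p = 0.0399). The difference exceeded the spread within groups, which was 0.139 CPM in the knockout-labelled group and 15.0 CPM in wild type (SD, n = 2 each). The call was lost when wild type 13 (0.214) or wild type 15 (0.388) was left out.

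Slc1a4 (ENSMUSG00000020142, chromosome 11, 20302180 to 20332713, minus strand) encodes ASCT1, the related exchanger of serine, alanine and cysteine. It measured 16.6 and 16.0 CPM in knockout-labelled 22 and 24, against 25.1 and 33.1 CPM in wild type 13 and 15. The wild-type libraries differed from each other by more than the knockout-labelled ones, and the groups did not overlap (log2 fold change -0.84, SE 0.19, adjusted p = 0.0431). This was the gene closest to the threshold among those that fell: its adjusted p was 0.0708, 0.321 and 0.0564 without wild type 13, wild type 15 and knockout-labelled 22, and 0.0656 with limma on log2(FPKM + 1). The FPKM of Slc1a4 relative to that of Slc1a5 was 0.0875 and 0.0842 in knockout-labelled 22 and 24, against 0.0961 and 0.117 in wild type 13 and 15. On the log2 scale that ratio differed by -0.31, and by -0.16 with wild type 15 left out.

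The system A genes, which encode sodium-coupled importers of small neutral amino acids, lie side by side on chromosome 15 with 44480 bases between them. Slc38a1 (ENSMUSG00000023169, 96571418 to 96642913, minus strand) measured 236 and 196 CPM in knockout-labelled 22 and 24, against 255 and 277 CPM in wild type 13 and 15. The groups did not overlap, yet the difference did not pass the threshold (log2 fold change -0.30, SE 0.14, adjusted p = 0.185), and it passed without knockout-labelled 22 (log2 fold change -0.43, adjusted p = 0.0396). Slc38a2 (ENSMUSG00000022462, 96687394 to 96699698, minus strand), whose product is known to increase when cells lack amino acids, measured 342 and 284 CPM in knockout-labelled 22 and 24, against 279 and 303 CPM in wild type 13 and 15. Here the groups overlapped (log2 fold change 0.11, SE 0.13, adjusted p = 0.617), and the fitted value was -0.02 without knockout-labelled 22.

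Although both genes varied between libraries of a group, their ratio hardly did. On the FPKM scale Slc38a1 stood at 0.380 of Slc38a2 in both knockout-labelled libraries, against 0.503 and 0.504 in wild type 13 and 15. Libraries of a group were closer than the counting error of a single ratio, which was 2.15% to 2.35%, so this closeness is more than the depth can resolve and the SDs of 0.000374 and 0.000821 understate the error. The mean ratio in the knockout-labelled group was 0.754 of that in wild type.

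Slc7a1 (ENSMUSG00000041313, chromosome 5, 148327410 to 148399904, minus strand) encodes CAT1, the importer of arginine, lysine and ornithine. It measured 130 and 78.4 CPM in knockout-labelled 22 and 24, against 156 and 186 CPM in wild type 13 and 15. The groups did not overlap, but the knockout-labelled libraries differed widely from each other, and the gene did not pass (log2 fold change -0.71, SE 0.24, adjusted p = 0.101). It passed with DESeq2 (adjusted p = 0.0333) and without knockout-labelled 22, where its log2 fold change was -1.11 (adjusted p = 0.0163), while without knockout-labelled 24 it was -0.40 (adjusted p = 0.0711).

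The remaining carriers were the least abundant. Slc6a9 (ENSMUSG00000028542, chromosome 4, 117834506 to 117875198, plus strand) encodes GlyT1, a sodium- and chloride-coupled glycine importer best known from the nervous system and red cell precursors. It measured 6.22 and 5.68 CPM in knockout-labelled 22 and 24, against 18.9 and 21.1 CPM in wild type 13 and 15, from 89 and 93 counts in the knockout-labelled libraries and 308 and 314 in wild type. Libraries of a group lay close together and the groups far apart, with means of 5.95 ± 0.384 CPM in the knockout-labelled group and 20.0 ± 1.55 CPM in wild type (SD, n = 2 each). The fitted log2 fold change was -1.75 with an SE of 0.19 (adjusted p = 0.0113). It was the member with the largest fitted fall and the only one called with each library left out in turn (log2 fold change -1.83 to -1.67, adjusted p = 0.0059 to 0.0211), and 0.987% of all genes had a lower fitted value. Of the 50-base words in its annotated transcripts, 24.86% also occur on the opposite strand in protein-coding transcripts of the neighbour Ccdc24. Strand use in the counting is not known here, and without it reads from this stretch could come from either gene. Ccdc24 itself had 0 and 3 counts in knockout-labelled 22 and 24, against 0 and 4 counts in wild type 13 and 15. B4galt2, which shares 46 exon bases with Slc6a9 on the opposite strand, had 11 and 8 counts, against 30 and 40 counts in wild type 13 and 15. The part of either neighbour in the Slc6a9 counts was not tested.

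Slc43a1 (ENSMUSG00000027075, chromosome 2, 84838850 to 84863594, plus strand) encodes LAT3, a carrier of leucine and other branched-chain amino acids that works without CD98 and without sodium. It was at 12 and 11.8 CPM in knockout-labelled 22 and 24, against 7.42 and 8.38 CPM in wild type 13 and 15. Both knockout-labelled libraries lay above both wild-type libraries, alone among the 10 genes, but the difference did not pass the threshold (log2 fold change 0.59, SE 0.19, adjusted p = 0.091; 0.0709 to 0.467 with each library left out).

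**Figure D3:**
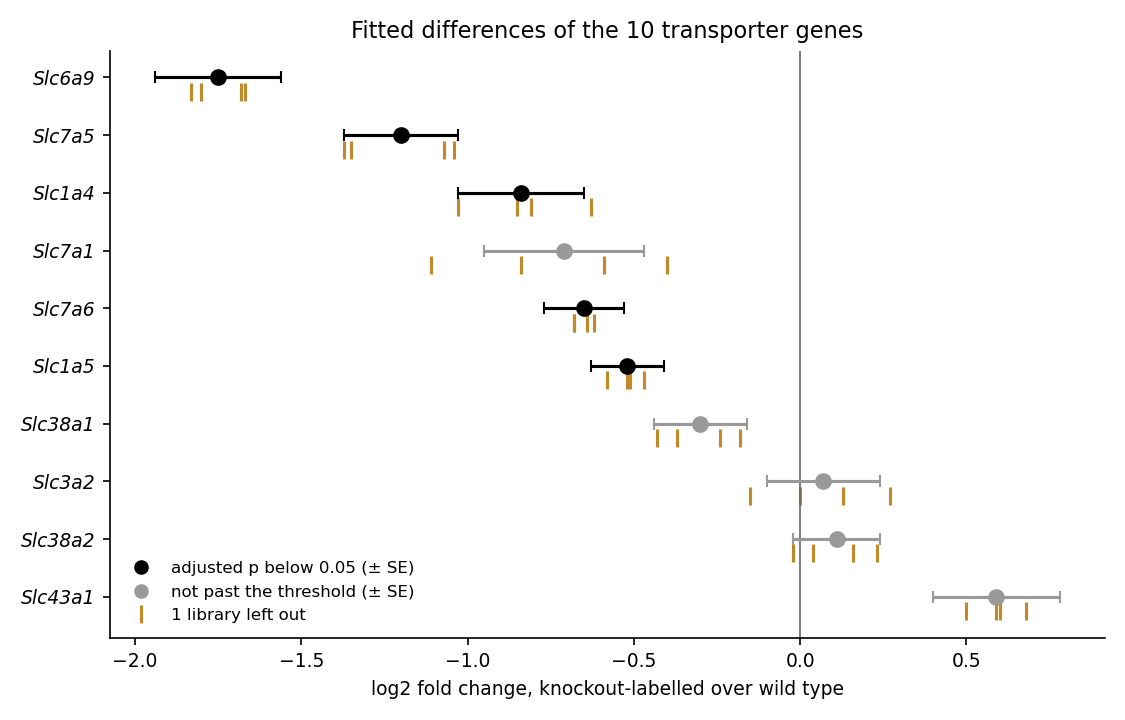
Fitted log2 fold change of the knockout-labelled over the wild-type libraries (horizontal axis) for each transporter gene, with bars of 1 SE, in black where the adjusted p was below 0.05 and grey where it was not. Gold ticks give the fitted value with each of the 4 libraries left out, which for Slc7a1 ran from -1.11 to -0.40 and for Slc6a9 from -1.83 to -1.67.

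Most of the 10 genes also varied together within a group. In CPM, all 10 stood higher in knockout-labelled 22 than in knockout-labelled 24, where 49.0% of all tested genes did. Likewise 9 of 10, the exception being Slc7a6, stood higher in wild type 15 than in wild type 13, where 49.3% of all genes did. Some gaps were very small, as Slc1a5 stood at 188 CPM in both knockout-labelled libraries. In FPKM, Slc1a5 (26.1 and 27.2), Slc1a4 (2.28 and 2.29) and Slc43a1 (1.3 and 1.33) stood lower in knockout-labelled 22 than in 24. Values of different transporters in a library cannot be taken as independent of each other. The summed FPKM of the 10 genes was 197 and 172 in knockout-labelled 22 and 24, against 231 and 259 in wild type 13 and 15. As a share of that sum Slc7a5 took 10.3% and 10% in knockout-labelled 22 and 24, against 17.4% and 19.5% in wild type 13 and 15. Slc38a2 took 35.9% and 35.7%, against 26.6% and 25.8% in wild type 13 and 15, and Slc3a2 took 14.1% and 12.4%, against 10.1% and 9.85% in wild type 13 and 15. The shares of Slc38a2 and Slc3a2 are of a sum that was lower in the knockout-labelled libraries, and neither gene itself passed the test. The sum and the shares also rest on the gene lengths that the authors divided by.

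By mean FPKM, Slc38a2 had the highest level in both groups, 66.2 in the knockout-labelled group and 64.1 in wild type. In the knockout-labelled group Slc1a5 (26.7), Slc38a1 (25.2) and Slc3a2 (24.6) followed with overlapping values, ahead of Slc7a5 (18.8). In wild type Slc7a5 (45.3) and Slc1a5 (39.8) came next, with overlapping values, ahead of Slc38a1 (32.3) and Slc3a2 (24.4). Slc7a6, Slc7a1 and Slc1a4 then followed in that order in both groups. Slc6a9 was the lowest in the knockout-labelled group (0.596, below Slc43a1 at 1.32), and Slc43a1 was the lowest in wild type (0.909, below Slc6a9 at 2.08). The order of many of these genes rests on the length the authors divided by, which was 0.487 to 1.90 times the exon length in GENCODE M21. Per annotated exon base, Slc3a2 and Slc1a5 stood above Slc38a2 in the knockout-labelled group, and Slc1a5, Slc7a5 and Slc3a2 stood above it in wild type. By that measure Slc38a1 stood below Slc7a5 in the knockout-labelled group (12.2 and 21.9) and below Slc3a2 in wild type (15.7 and 45.9). Slc7a1 (15.1) then stood above Slc7a6 (14.6) in wild type. For each gene, and for a ratio between a pair of genes, the difference between groups does not depend on the length used. Sums over genes and shares of a sum do depend on it.

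The genes whose levels over the 4 libraries lay nearest to those of Slc7a5, among 10406 others with a mean of 5 CPM or more and no library at 0, were Metap1d, Gm6710, Fbxo48, Ptprf and Itgae. Their root mean square distance on the centred log2 CPM scale was 0.0451, 0.0578, 0.0599, 0.061 and 0.0629, and a pattern over 4 libraries is little more than the difference between the groups. None of the other 9 transporters was among them.

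Promoter sequence was available from RefSeq (GRCm38.p6) for 7 of the 10 genes, and the 250 bases before each start were searched on both strands for the core of the amino acid response element bound by ATF4 and its partners, TGATGNAA, and for the E-box bound by Myc and Max, CACGTG. Neither was found in the windows of Slc6a9, Slc7a1, Slc7a6, Slc1a4, Slc38a2 or Slc3a2, where 3.45% of 32851 windows of this kind hold the first and 6.02% the second. Some of these windows lie inside the annotated gene. A window of Slc6a9 and a window of Slc7a1 have all 250 bases in exons of their own gene, and the Slc3a2 window has 169. A response element outside these windows would not have been seen, and a match is not a bound site. One window each of Slc7a6 and Slc1a4, a light chain gene and an exchanger gene that fell, is shown 5′ to 3′ with no base in capitals because neither motif is present; these windows hold no annotated exon.
Slc7a6, chr8:106168604-106168853, plus strand: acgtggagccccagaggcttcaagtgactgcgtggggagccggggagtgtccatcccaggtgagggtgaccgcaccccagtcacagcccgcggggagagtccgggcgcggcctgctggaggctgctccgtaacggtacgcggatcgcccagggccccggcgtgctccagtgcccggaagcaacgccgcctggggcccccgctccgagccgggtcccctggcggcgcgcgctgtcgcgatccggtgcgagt
Slc1a4, chr11:20332714-20332963, minus strand: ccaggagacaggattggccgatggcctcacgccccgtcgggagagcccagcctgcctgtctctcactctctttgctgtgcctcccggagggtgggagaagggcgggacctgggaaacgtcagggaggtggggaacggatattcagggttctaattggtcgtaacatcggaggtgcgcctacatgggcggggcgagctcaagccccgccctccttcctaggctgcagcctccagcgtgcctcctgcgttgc

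The only match was an E-box before a start of Slc43a1, whose higher level in the knockout-labelled libraries did not pass the test. The E-box lies 59 to 64 bases before that start and is shown in capitals within 30 bases. Its window lies inside the annotated gene, and 124 of the 250 bases are in annotated exons of Slc43a1. Of 27025 genes with such windows, 6.86% hold an E-box in at least 1 of them.
Slc43a1, chr2:84840247-84840276, plus strand: agggtctccctcCACGTGgcagccgtggga

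Most other amino acid carriers did not pass the test. Of 38 further carrier genes, 20 passed the filter on low counts, and of these 2 fell and 1 rose; the median log2 fold change was 0.01. Those that fell were Slc7a3, a cationic carrier gene related to Slc7a1 (3.01 and 4.34 CPM in knockout-labelled 22 and 24, against 8.09 and 15.6 CPM in wild type 13 and 15; adjusted p = 0.0403), and Slc36a4, a carrier gene for proline and tryptophan (31.9 and 28.1 CPM, against 45 and 51.5 CPM in wild type 13 and 15; adjusted p = 0.0367). The gene that rose was Slc15a3, a carrier of histidine and small peptides in lysosomes (44.6 and 32.6 CPM, against 16.8 and 17.0 CPM in wild type 13 and 15; adjusted p = 0.0218). Slc7a3 was not called without wild type 15 (adjusted p = 0.194) or knockout-labelled 22 (0.0953), and Slc36a4 and Slc15a3 were not called without wild type 13 (0.124 and 0.0664) or wild type 15 (0.304 and 0.0917). The cystine carrier gene Slc7a11 measured 1.07 and 1.40 CPM in knockout-labelled 22 and 24, against 2.27 and 3.15 CPM in wild type 13 and 15 (log2 fold change -1.12, adjusted p = 0.107).

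Of 29 genes of the amino acid response driven by ATF4, 14 fell (48.3%), 1 rose (3.45%) and 14 did not pass. Over all tested genes 4.59% fell and 5.53% rose. The median log2 fold change was -0.89 over the list, beside a median of 0.00 over all genes. Several of the transporters examined here are themselves described as ATF4 targets, and this response was already known to differ in these libraries, so the count is no independent support for them. Asns, which makes asparagine, stood at 34.1 and 34.7 CPM in knockout-labelled 22 and 24, against 99.0 and 119 CPM in wild type 13 and 15 (adjusted p = 0.00947). Trib3, a pseudokinase that restrains ATF4, fell 3.49-fold, and Atf5, a related factor, fell 2.87-fold (adjusted p = 0.0103 each). Phgdh, which starts serine synthesis, fell 2.27-fold, and Cth, which makes cysteine, stood at 2.34 and 2.62 CPM, against 9.93 and 15.2 CPM in wild type 13 and 15 (adjusted p = 0.0126 and 0.0135). The member that rose was Ppp1r15a, the phosphatase subunit that ends the response (1.61-fold, adjusted p = 0.0265; 0.166 and 0.235 with wild type 13 and 15 left out). Slc7a3, counted above among the carriers, is also on this list. Atf4 itself measured 556 and 350 CPM in knockout-labelled 22 and 24, against 315 and 334 CPM in wild type 13 and 15, so both knockout-labelled libraries lay above wild type without passing the test (log2 fold change 0.48, adjusted p = 0.175). The same held for Atf3 (log2 fold change 0.71, adjusted p = 0.112), another stress-induced factor, and for Ddit4 (0.34, adjusted p = 0.102), an inhibitor of mTORC1. When wild type 13, wild type 15, knockout-labelled 22 and knockout-labelled 24 were left out in turn, 11, 4, 14 and 18 genes were lower and 4 were higher in the last of these, and the adjusted p of Phgdh was 0.0538 without wild type 15.

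Enzymes that make or use the carried amino acids gave 11 lower (28.9%) and 1 higher (2.63%) of 38 tested. Over all tested genes the shares were 4.59% and 5.53%. The median log2 fold change of the list was -0.33. Of the 11, 8 also belong to the ATF4 list. Outside that list, Shmt1, the cytosolic serine to glycine enzyme, fell 3.17-fold, with 8.10 and 7.02 CPM in knockout-labelled 22 and 24, against 21.3 and 26.7 CPM in wild type 13 and 15 (adjusted p = 0.0135). Gclm, also outside it, fell 2.3-fold (12.9 and 17.6 CPM, against 39.7 and 30.7 CPM in wild type 13 and 15, adjusted p = 0.0267). Gclm was not called with wild type 13 left out. Bcat1, which transaminates the branched-chain amino acids that Slc7a5 and Slc43a1 carry, fell 1.84-fold (28.5 and 24.4 CPM, against 41.9 and 55.2 CPM in wild type 13 and 15; adjusted p = 0.034, and 0.257 with wild type 15 left out). Aldh18a1, the first enzyme of proline synthesis and one of the 8, fell 1.99-fold (adjusted p = 0.0141, and 0.1 with wild type 15 left out). Odc1, which turns arginine-derived ornithine into polyamines, moved the other way: it stood at 979 and 868 CPM in knockout-labelled 22 and 24, against 501 and 486 CPM in wild type 13 and 15 (1.87-fold, adjusted p = 0.0135). Odc1 did not pass without wild type 13 or 15 (adjusted p = 0.0515 and 0.0831). Leaving out wild type 13 gave 7 lower enzymes, and leaving out wild type 15 gave 3; without knockout-labelled 22 and without 24, 3 and 5 enzymes were higher.

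Of 42 genes for amino acid sensing by mTORC1, for mTORC1 itself and for its other regulators and substrates, 3 fell (7.14%) and 1 rose (2.38%). These shares were near those of all tested genes, 4.59% and 5.53%. The median log2 fold change of the list was -0.03. Kptn and Itfg2, subunits of the KICSTOR complex that anchors the inhibitory GATOR1 complex to lysosomes, fell 2.05-fold and 2.07-fold, with means of 8.15 and 7.19 CPM in the knockout-labelled group, against 16.7 and 14.9 CPM in wild type (adjusted p = 0.0267 and 0.0297). Lars, the leucyl-tRNA synthetase gene, fell 1.67-fold, and Flcn, a regulator of the Rag GTPases that recruit mTORC1, rose 1.74-fold (adjusted p = 0.033 and 0.0363). All 4 of these calls were lost with wild type 13 left out (adjusted p = 0.0674 to 0.135) and with wild type 15 left out (0.135 to 0.263). With knockout-labelled 22 left out 7 genes of the list were lower and 3 higher, and with knockout-labelled 24 left out 6 were lower and 3 higher.

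Uptake of other nutrients gave 1 lower and 1 higher of 17 tested genes (5.88% each), near the 4.59% and 5.53% of all tested genes. The lower gene was the lactate carrier gene Slc16a1 (37.8 and 34.8 CPM in knockout-labelled 22 and 24, against 55.4 and 65.1 CPM in wild type 13 and 15, adjusted p = 0.0307). The higher gene was the fatty acid receptor gene Cd36 (8.70 and 10.1 CPM, against 1.23 and 1.07 CPM in wild type 13 and 15, adjusted p = 0.00947). Slc2a1, the glucose carrier gene, measured 46.2 and 53.3 CPM, against 57.4 and 59.6 CPM in wild type 13 and 15 (adjusted p = 0.276). Myc, a factor known to raise Slc7a5 and Slc1a5 in activated T cells, stood at 30.4 and 38.4 CPM in knockout-labelled 22 and 24, against 56.0 and 60.8 CPM in wild type 13 and 15 (log2 fold change -0.76, SE 0.16, adjusted p = 0.0337; 0.111 when wild type 13 was left out and 0.205 when wild type 15 was). Mxi1 and Mxd4, which compete with Myc for its partner Max, rose 2.17-fold and 1.89-fold (adjusted p = 0.0223 and 0.0446; 0.0708 and 0.13 when wild type 13 was left out, and 0.095 and 0.19 when wild type 15 was). In all, 2 of the 11 genes of this list rose (18.2%) and 1 fell (9.09%), beside 5.53% and 4.59% of all tested genes. Slc16a1 was not called without wild type 13 (adjusted p = 0.0849) or wild type 15 (0.254). In the list of other nutrients 3 genes were lower with DESeq2, with no filter, with upper quartile or total scaling, and with knockout-labelled 22 or 24 left out, and 4 were higher with knockout-labelled 24 left out.

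Markers of T cell activation, the state in which these carriers are made, did not move one way. Of 10 genes 2 rose (Icos and Tnfrsf9) and 2 fell (Il2ra and Mki67), where 5.53% and 4.59% of all tested genes did. The summed level of the 10 genes was 5220 and 5220 CPM in knockout-labelled 22 and 24, against 5110 and 5400 CPM in wild type 13 and 15. Mki67, a marker of dividing cells, measured 1350 and 1410 CPM, against 1830 and 2130 CPM in wild type 13 and 15 (adjusted p = 0.0408; 0.326 with wild type 15 left out, 0.104 with wild type 13 and 0.0519 with knockout-labelled 22). Il2ra and Tnfrsf9 were not called with wild type 13 left out (0.166 and 0.0631) or wild type 15 left out (0.247 and 0.127). The part of cell division in the lower transporter levels was not tested.

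**Figure D4:**
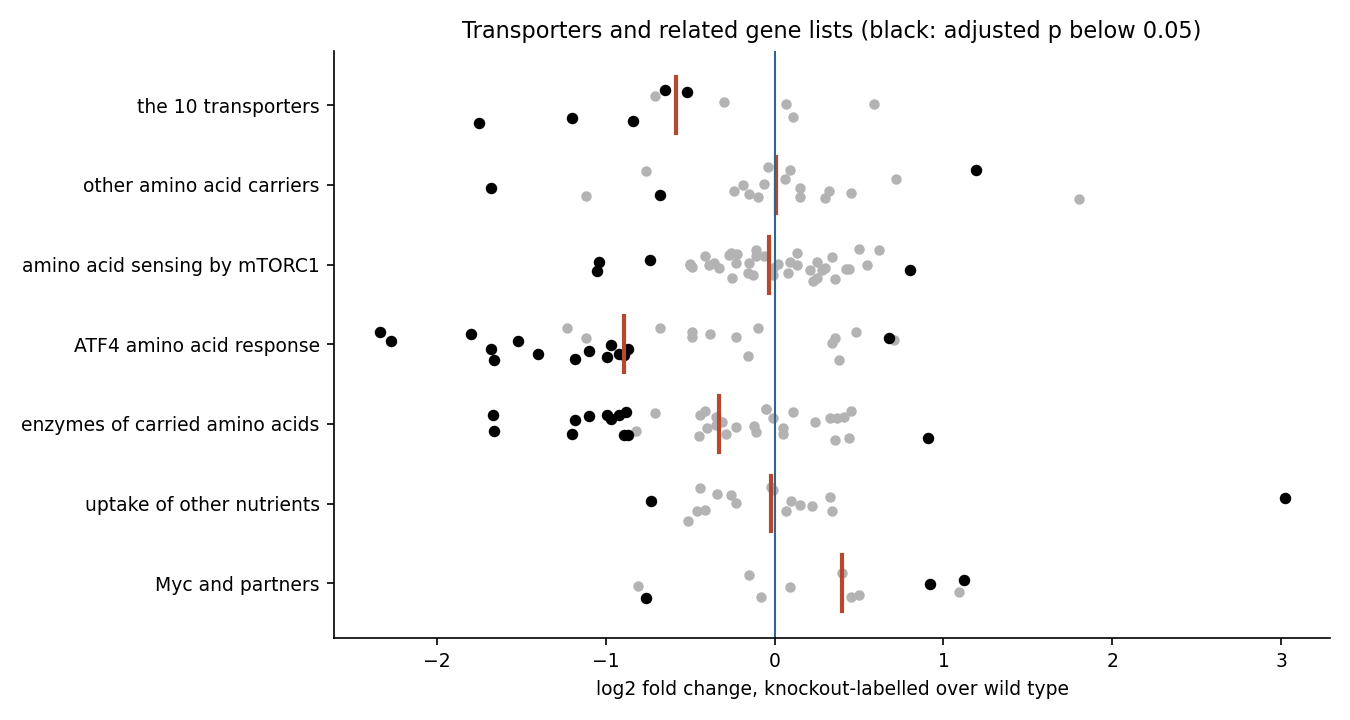
Fitted log2 fold change of the knockout-labelled over the wild-type libraries (horizontal axis) for each tested gene of the 10 transporters and of 6 related lists; points are spread vertically at random, black points had an adjusted p below 0.05, red bars mark list medians and the blue line the median of all tested genes (0.00). List medians ran from -0.89 for the ATF4 response, beside -0.59 for the transporters, to 0.40 for the Myc list.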

How the data were processed

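RNA from 4 cultures collected on day 3 was sequenced on an Illumina HiSeq platform, per the labels' protocols. Bowtie2, RSEM and GRCm38.p6 (mm10) were named in the submitters' processing notes. The sources used here give no versions, options, annotation release or strand setting. The authors deposited whole-number counts per gene and, beside them, FPKM values. Counts were analysed in R 4.3.3 with edgeR 4.0.16: filterByExpr (minimum count 10, total 15), trimmed mean of M values scaling (factors 0.959 and 1.00 for knockout-labelled 22 and 24, 1.02 and 1.02 for wild type 13 and 15), glmQLFit and glmQLFTest, two-sided, adjusted over all genes by Benjamini-Hochberg, threshold 0.05. Standard errors are the size of the log2 fold change over the square root of F. The fit was tested on simulated counts. Library totals were 14599957 to 16030869. Alternatives used limma 3.58.1 and DESeq2 1.42.0.

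The transporters, the related lists and the tests were chosen with earlier results of these data known. Of 219 genes listed, 215 matched a symbol of the table, 3 an older or newer symbol, and 1 could not be matched to a single row. Text names all 10 members, up to 5 called genes of each list by adjusted p, and the 5 genes nearest to Slc7a5, a search that left out 1 gene with a library at 0. Slc7a11, Slc2a1, Bcat1, Gclm, Ppp1r15a, Atf4, Atf3, Ddit4, Eomes, Sox13, Ncr1, Mki67, Icos, Tnfrsf9, Il2ra and the neighbour B4galt2 were added after their values were seen. Words of 50 bases shared between transcripts came from GENCODE M21, a GRCm38 annotation. Figures used matplotlib 3.10.9.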

Additional observations from a re-analysis of the deposited data

How the results depend on the processing

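The count of transporter genes called lower (5) was 4 to 6 under other scalings, filters, robust dispersion, DESeq2 1.42.0, limma-voom and limma on FPKM, but 1 against a minimum fold of 1.5 and 0 at an adjusted p below 0.01, and 1 to 6 with each library left out; none was called higher in any of these. Without knockout-labelled 22 the fitted values of Slc3a2 and Slc38a2 turned negative, in ranges of -0.15 to 0.27 and -0.02 to 0.23. Over all genes, 734 higher and 610 lower calls became 1261 and 1088 with no filter, 85 and 35 against a fold of 1.5, 23 and 6 at 0.01, 445 higher with limma on log2(FPKM + 1) and 457 on log2(FPKM + 0.1), and 120 to 2122 higher and 70 to 2002 lower with a library left out. Over the related lists, 7 higher and 23 lower genes became 4 higher on both FPKM scales, 1 and 5 against a fold of 1.5, 1 and 1 at 0.01, and 1 to 24 and 6 to 36 with a library left out. Among the fits with a library left out, over all genes and over the related lists, the fewest calls came without wild type 15 and the most without knockout-labelled 24; the cause was not tested. With a library left out, the log2 differences between groups ran from -1.36 to -1.16 for Slc7a5 to Slc3a2, 0.37 to 0.73 for Slc7a6 to Slc7a5, -0.41 to -0.40 for Slc38a1 to Slc38a2 and -0.45 to -0.16 for Slc1a4 to Slc1a5; a change of gene length cancels between groups. Scaling by library totals shifted the median log2 fold change of all genes by -0.057. No paired analysis was run because the labels name no pairs of libraries across the groups. Floors of 3 counts cover counting error only.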
